A study of Mus musculus with 5 samples.

Results

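The 10 genes described here, Myl4, Myl7, Sln, Bmp10, Dkk3, Nr2f1, Nr2f2, Kcnj3, Stard10 and Gja5, are known for their expression in atrial heart muscle, and they are 10 of the 22180 genes that the arrays represented. Each gene was read from the probe set that carried its symbol alone and had the highest mean signal over all 5 arrays, so the probe sets were chosen by that mean level, and the list was drawn up with earlier results of these arrays known. The arrays measured transcripts in total RNA of heart tissue from male mice aged 12 weeks on the C57BL/6 background, 2 from Akita mice (replicates 1 and 3) and 3 from wild type mice (replicates 3, 4 and 5). Akita mice are heterozygous for a mutation of the insulin gene Ins2 (Ins2+/-) and serve as a model of type 1 diabetes, and both groups share the background, sex and age. The labels give the tissue as heart and name no chamber, and they do not say whether replicates came from separate animals, so the p-values speak to the spread among these samples, part of which may be technical.

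Atrial and ventricular muscle cells use different sets of contractile, calcium-handling and channel genes. In the mouse the atria express their own myosin light chains, a small inhibitor of the sarcoplasmic calcium pump, and the channel subunits through which acetylcholine slows the heart, while the COUP transcription factors help to keep the atrial programme on and the ventricular programme off. Heart tissue holds both chambers together with vessels, fibroblasts and the surface layer, and in such bulk RNA a lower signal can mean fewer cells of a type or less RNA per cell, which cannot be told apart.

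The atrial genes did not separate the Akita from the wild type hearts as a group, but they separated the 2 Akita arrays from each other. Signals of Bmp10, Sln, Myl7, Dkk3 and Stard10 lay at least 1 log2 unit higher in Akita replicate 3 than in Akita replicate 1, and at least 1 log2 unit above the wild type mean as well. Such a gap between the Akita arrays was present in 0.638% of the 15528 genes tested, and such a distance from the wild type mean in 0.502%. In Akita replicate 1, Myl7 and Sln lay more than 1 log2 unit below the wild type mean, which held for 0.283% of all genes tested. For Nr2f1 and Gja5 both Akita arrays lay within the wild type range. None of the 10 genes passed an adjusted p of 0.05 for Akita minus wild type by limma, a linear model that shares variance estimates across genes, where 51 of the 15528 genes tested (0.328%) did.

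To show what lies in front of the genes with wide gaps, the 250 bases before the RefSeq start of Bmp10 and Myl7 are given here 5′ to 3′, from the promoter table of build GRCm38.p6. Capitals mark matches to the motifs searched, which in these stretches are AGATAA, read by GATA factors, in Bmp10, and the CArG box, read by the serum response factor, in Myl7. The Bmp10 stretch is chr6:87428744-87428993 on the plus strand and the Myl7 stretch is chr11:5898783-5899032 on the minus strand.
Bmp10: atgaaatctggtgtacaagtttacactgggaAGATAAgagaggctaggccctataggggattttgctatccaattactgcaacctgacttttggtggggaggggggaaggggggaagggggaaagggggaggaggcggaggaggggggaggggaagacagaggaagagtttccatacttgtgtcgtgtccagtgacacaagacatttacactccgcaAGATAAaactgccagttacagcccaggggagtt
Myl7: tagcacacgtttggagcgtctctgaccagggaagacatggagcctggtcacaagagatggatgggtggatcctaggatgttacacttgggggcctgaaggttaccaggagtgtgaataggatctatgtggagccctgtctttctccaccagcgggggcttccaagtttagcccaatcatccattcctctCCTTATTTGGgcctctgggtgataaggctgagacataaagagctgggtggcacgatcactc
Bmp10 held AGATAA at 219 and at 33 bases before the start, both on the coding strand, and Myl7 held a CArG box at 61 bases before it. Of 27025 promoters of the same length, 10.3% held AGATAA and 1.4% a CArG box on either strand. The search also covered the MEF2 box (3.23% of promoters), AGGTGT of T-box factors (12.0%), TNAAGTG of NKX2-5 (10%) and TATAAA (13.0%), always on both strands. The table held 8 of the 10 genes. Sln and Dkk3, which also had wide gaps, were absent from it and were not searched. Kcnj3 had a T-box match, at 38 bases before the start used, and the stretches of Myl4, Nr2f1, Nr2f2, Stard10 and Gja5 did not hold any of these letter patterns. For Kcnj3 and Myl4 the start used lies inside the gene span and not at its outer end. The Kcnj3 stretch is chr2:55435720-55435969, where the span begins at 55411798. The Myl4 stretch is chr11:104550413-104550662, where the span begins at 104546017. These matches are descriptions of sequence, and the motifs were chosen after the signals were known.

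Bmp10 encodes a secreted ligand of the BMP family that adult mouse hearts make mainly in the right atrium, and it signals to endothelium. Its signal was 5.71 and 10.83 in Akita replicates 1 and 3, against 4.63, 4.64 and 5.18 in wild type replicates 3, 4 and 5, in log2 units like the levels below. Akita replicate 3 stood far above the other 4 arrays, Akita replicate 1 lay 0.89 above the wild type mean, and the groups did not overlap. Among the 10 genes Bmp10 was the exception in this, while 29.7% of all genes tested had groups that did not overlap, 9.89% with both Akita arrays above. It was also the 1 member of the 10 with an unadjusted p under 0.05, which 13.6% of all genes tested had. The signal in Akita replicate 3 was 64.6 times the wild type mean on the linear scale (the geometric mean), and in Akita replicate 1 it was 1.86 times that mean. The wild type signals of Bmp10 were dim, near the median signal of those arrays (4.53 to 4.62), and were not shown to be above background, so the size of these folds is uncertain. The gap of 5.12 between the Akita arrays was the widest of the 15528 genes tested. Akita minus wild type was 3.45 (SE 1.23, unadjusted p = 0.0249, adjusted p = 0.302). Without Akita replicate 3 the difference was 0.89, and without Akita replicate 1 it was 6.01 with adjusted p = 0.00109, a fit that takes the lone Akita array to vary as much as the wild type ones. Over all alternatives the adjusted p for Bmp10 ran from 0.00109 to 0.600.

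**Figure D1:**
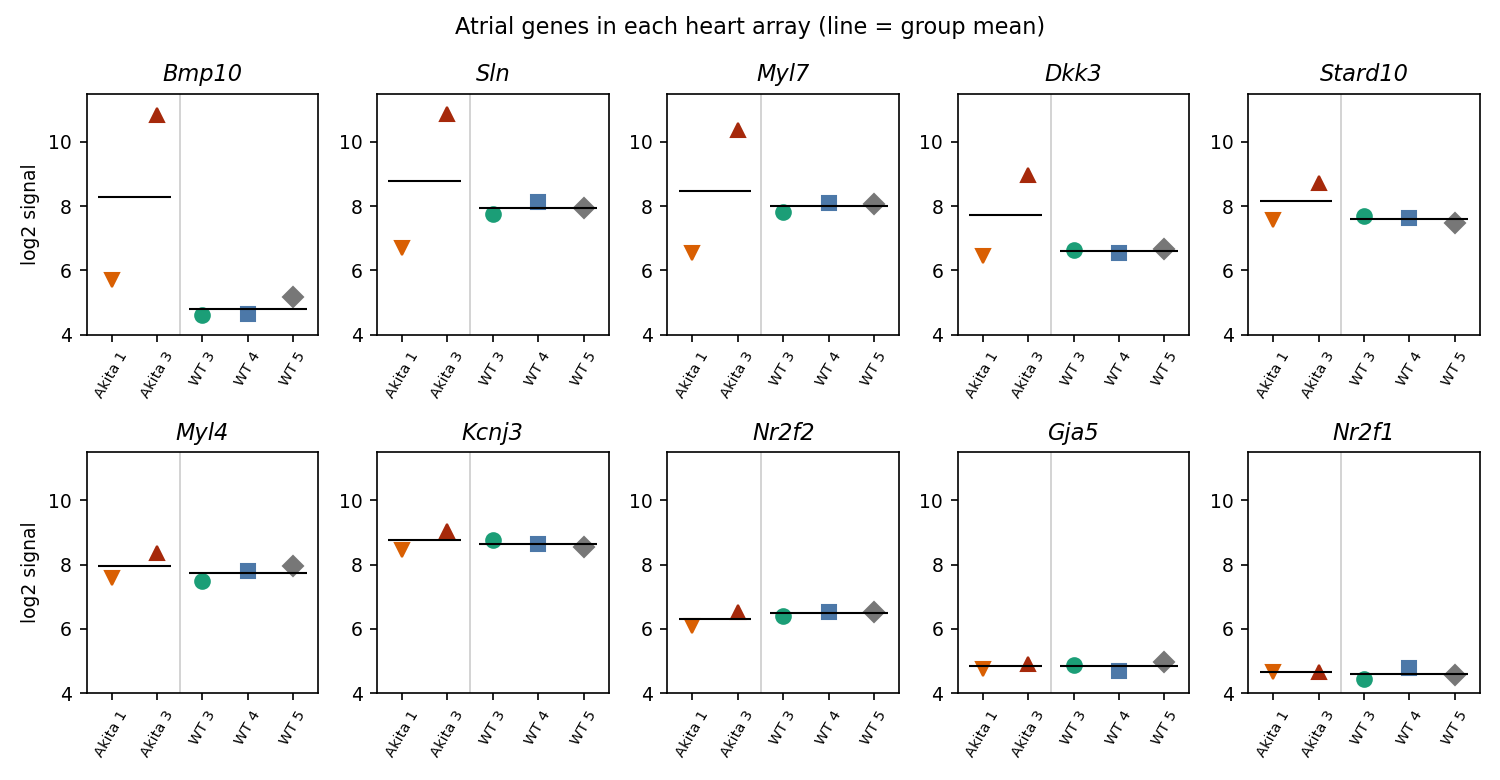
Log2 signal (vertical axis) of each of the 10 atrial genes in Akita replicates 1 and 3 and wild type (WT) replicates 3, 4 and 5, with 1 panel per gene, 1 symbol per array and a line at each group's mean. Panels run from the widest to the narrowest difference between the Akita arrays, and Bmp10, Sln and Myl7 lie above 10 in Akita replicate 3 alone.

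Among the contractile genes, the atrial light chain gene Myl7 had a wider gap between the Akita arrays than Myl4. Myl7 encodes the regulatory light chain of atrial myosin, the counterpart of Myl2 in the ventricle. Its signal was 6.55 and 10.36 in Akita replicates 1 and 3, against 7.83, 8.10 and 8.08 in wild type hearts. The wild type arrays sat close together, with Akita replicate 1 below all of them and Akita replicate 3 above all of them. The distances from the wild type mean were -1.45 and 2.36 in the Akita arrays, and the fitted difference of 0.45 (SE 0.91, adjusted p = 0.872) is the average of those opposite values. Without Akita replicate 1 it was 2.36 with adjusted p = 0.00463, and without Akita replicate 3 it was -1.45 with adjusted p = 0.0648, within a range of 0.00463 to 0.944 over all alternatives.

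Myl4 encodes the essential light chain of atrial myosin and is also made in the fetal ventricle. It had 7.57 and 8.37 in the Akita arrays, against 7.48, 7.79 and 7.97 in wild type hearts. Akita replicate 3 was again the highest array, by less, and Akita replicate 1 lay within the wild type range. The difference was 0.22 (SE 0.25, adjusted p = 0.736).

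Sln encodes sarcolipin, a small membrane protein that inhibits the sarcoplasmic calcium pump, and its expression in the mouse heart is mainly atrial. Levels were 6.71 and 10.85 in Akita replicates 1 and 3, against 7.74, 8.13 and 7.95 in wild type hearts. As for Myl7, the Akita arrays lay on either side of all the wild type arrays, at -1.23 and 2.91 from the wild type mean. On the linear scale the signal in Akita replicate 3 was 17.6 times that in Akita replicate 1. Akita minus wild type was 0.84 (SE 0.99, adjusted p = 0.757), or 2.91 without Akita replicate 1 (adjusted p = 0.00346, range over alternatives 0.00346 to 0.883) and -1.23 without Akita replicate 3.

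The pump and its other inhibitor had nearly equal signals in all arrays. Atp2a2, the cardiac pump itself, had 13.23 and 13.21 in the Akita arrays against 13.28, 13.25 and 13.23 in wild type hearts. Pln, the inhibitor that dominates in the ventricle, had 13.13 and 13.07 against 13.15, 13.14 and 13.21. Of 12 genes of the sarcoplasmic calcium pump and store, 0 rose and 0 fell, with a median difference of -0.03, which was also the median over all genes tested. Here and in the lists below, 0 calls says little about a list, because 0.328% of all genes tested were called. Casq1, a calcium-binding protein of the store, had the smallest p of the 12 (6.23 and 7.10 in the Akita arrays against 7.43, 7.39 and 7.05 in wild type hearts, adjusted p = 0.343). Of 14 genes of the myosin light chain system, 0 rose and 0 fell, with a median of -0.01. Its ventricular light chain Myl2 had 8.43 and 8.32 in the Akita arrays against 8.55, 8.65 and 8.66 in wild type hearts (log2 difference -0.24, SE 0.11, adjusted p = 0.387).

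Dkk3, a secreted glycoprotein of the Dickkopf family, had 6.44 and 8.98 in the Akita arrays, against 6.64, 6.53 and 6.66 in wild type hearts. Akita replicate 3 stood 2.37 above the wild type mean and the other 4 arrays lay between 6.44 and 6.66. The difference was 1.10 (SE 0.61, adjusted p = 0.482), or 2.37 without Akita replicate 1 (adjusted p = 0.00294, range over alternatives 0.00294 to 0.751) and -0.17 without Akita replicate 3. Among 10 other Dickkopf, receptor and Wnt genes 0 rose and 0 fell (median 0.02), and Sfrp1, a secreted Wnt antagonist, had the smallest p at 7.23 and 7.66 against 7.37, 6.88 and 7.02 (adjusted p = 0.462).

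Genes of BMP9 and BMP10 signalling were measured too, and in these 0 of 16 rose and 0 fell, with a median difference of -0.08. Acvrl1, the endothelial type I receptor for the ligand, had 6.46 and 6.47 in the Akita arrays against 6.77, 6.57 and 6.74 in wild type hearts (adjusted p = 0.438). Gdf2, which encodes the related ligand BMP9, had 4.58 and 4.37 against 4.36, 4.46 and 4.41. The receptor-activated factor gene Smad9 had the smallest p of the 16 (log2 difference -0.37, SE 0.16, adjusted p = 0.392). Akita replicate 3 was the highest and Akita replicate 1 the lowest of the 5 arrays in 7 of the 16, an order found in 7.19% of all genes tested. Among the 7 were Id2, with 7.01 and 8.06 against 7.03, 7.41 and 7.31, and Smad6, with 5.94 and 6.78 against 6.31, 6.33 and 6.01. The median difference averages the 2 Akita arrays and does not show this order.

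Kcnj3 encodes a subunit of the potassium channel opened by acetylcholine in atrial and pacemaker cells. Its signal was 8.47 and 9.06 in the Akita arrays, against 8.76, 8.63 and 8.55 in wild type hearts, so the Akita arrays again enclosed the wild type ones, by less than for Myl7 and Sln. The difference was 0.12 (SE 0.18, adjusted p = 0.823). A second, dimmer probe set of Kcnj3 had 4.40 and 4.90 against 4.86, 4.54 and 4.65, with a difference of -0.03. Kcnj5, the partner subunit in the same channel, had 7.50 and 8.24 against 7.99, 8.09 and 7.77 (log2 difference -0.08, adjusted p = 0.910). Of 13 tested partner genes of this current, 0 rose and 0 fell (median -0.05), and Gnai3, a G protein subunit, had the smallest p (log2 difference 0.25, SE 0.12, adjusted p = 0.405).

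Stard10, which encodes a lipid-transfer protein with a START domain, had 7.58 and 8.72 in the Akita arrays, against 7.69, 7.64 and 7.48 in wild type hearts. Akita replicate 1 lay inside the wild type range and Akita replicate 3 stood 1.12 above the wild type mean, or 2.17 times it on the linear scale. The difference was 0.55 (SE 0.29, adjusted p = 0.467). Among 10 other lipid-transfer and thioesterase genes with the domain or its fold 0 rose and 0 fell (median -0.07), with Stard3 at 5.84 and 6.04 against 6.34, 6.21 and 6.49 (adjusted p = 0.269).

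The transcription factor and gap junction members did not have the high signal in Akita replicate 3. Nr2f2, which encodes the COUP factor that promotes atrial identity in the mouse and is also made in veins, had 6.09 and 6.53 in the Akita arrays against 6.40, 6.53 and 6.54 in wild type hearts (log2 difference -0.18, SE 0.15, adjusted p = 0.648). Here Akita replicate 1 was the lowest array and Akita replicate 3 lay within the wild type range, with a gap of 0.44 between them. Its relative Nr2f1 had 4.65 in both Akita arrays against 4.46, 4.79 and 4.56 in wild type hearts (log2 difference 0.05, SE 0.13, adjusted p = 0.912).

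Gja5 encodes a connexin, a gap junction protein of atrial muscle, the conduction system and arterial endothelium. Its probe set had 4.77 and 4.90 in the Akita arrays against 4.87, 4.69 and 4.96 in wild type hearts, with the groups overlapping (log2 difference -0.01, SE 0.13, adjusted p = 0.990). Nr2f1 and Gja5 were dim, with means of 4.62 and 4.84 where genes under 4.06 were left out of the test. These means lay near the median signals of the arrays (4.53 to 4.71) and were not shown to be above background. The lack of a gap in these 2 genes therefore says little about their transcripts. Another probe set was annotated to both Gja5 and a neighbouring symbol and was not used. Of 8 gap junction and junction-associated genes 0 rose and 0 fell, with Gjc1, another connexin, having the smallest p (log2 difference -0.27, SE 0.14, adjusted p = 0.461).

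Chamber transcription factors lay lower in Akita than in wild type hearts in 12 of 14 cases, where 56.4% of all genes tested lay lower, with 0 past the threshold and a median of -0.21. Median distances from the wild type mean were -0.30 and -0.16 in Akita replicates 1 and 3. Akita replicate 1 lay below all wild type arrays in 12 of the 14 (43.4% of all genes tested). Irx4 and Hey2 are also in the ventricular list below, Tbx5 in the other atrial list and Tbx20 in the BMP list, so counts over these lists are not independent. Nkx2-5, a cardiac master regulator, had 7.93 and 8.26 in the Akita arrays against 8.83, 8.86 and 8.69 in wild type hearts (log2 difference -0.70, SE 0.14, adjusted p = 0.125). Both Akita arrays lay below all the wild type arrays in 7 of these 14 genes, where 19.9% of all genes tested did. Prdm16 and Hand2, at -0.32 and -0.31 (adjusted p = 0.303 and 0.314), were among them.

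Over the 10 genes together, Akita replicate 3 was above all wild type arrays in 7 (25.2% of all genes tested) and Akita replicate 1 was below all of them in 5 (43.4%). Both held at once, with Akita replicate 3 the highest and Akita replicate 1 the lowest of the 5 arrays, for Myl7, Sln, Dkk3 and Kcnj3, 4 of the 10 (7.19% of all genes tested). The median distance from the wild type mean was -0.17 in Akita replicate 1 and 0.87 in Akita replicate 3, against -0.07 and -0.01 over all genes tested. The median absolute gap between the Akita arrays was 0.97 over the 10 genes and 0.19 over all genes tested. Within the wild type group, by contrast, the median range was 0.27 over the 10 genes and 0.23 over all. Median signals of the whole arrays were 4.71 and 4.60 in the Akita arrays and 4.53, 4.56 and 4.62 in wild type ones.

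**Figure D2:**
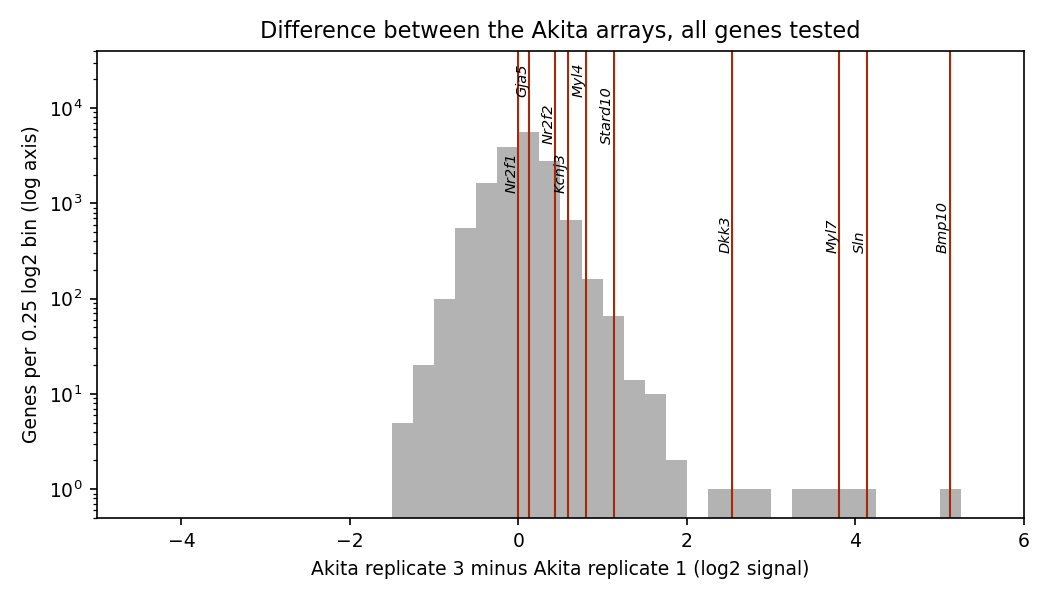
Number of genes (vertical log axis, bins of 0.25) by the difference in log2 signal between Akita replicate 3 and Akita replicate 1 (horizontal axis) for the 15528 genes tested, with red lines at the 10 atrial genes. Bmp10, Sln, Myl7 and Dkk3 lie at 5.12, 4.14, 3.81 and 2.54, beyond nearly all other genes.

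The 8 genes with the widest absolute gap between the Akita arrays were Bmp10, Sln, Myl7, Mybphl, Hamp, Fgf12, Dkk3 and Sbk3, in this order, and 4 of them are members of the list. Mybphl, Hamp and Fgf12 were chosen after their values were seen. Mybphl, a myosin-binding protein gene of atria and conduction tissue, had 4.74 and 8.37 in the Akita arrays against 5.63, 5.81 and 5.91 in wild type hearts. Hamp, which encodes the iron regulator hepcidin, had 4.89 and 8.14 against 7.66, 7.82 and 7.72, so for this gene Akita replicate 1 stood apart and Akita replicate 3 lay 0.41 above the wild type mean. Fgf12, a fibroblast growth factor homologue that binds sodium channels, had 4.77 and 7.62 against 5.04, 5.21 and 4.87.

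Other genes known from the atria gave 0 calls among 14 tested (0.328% of all genes tested), with a median of -0.07 in Akita replicate 1 and 0.39 in Akita replicate 3. Akita replicate 3 was the highest of the 5 arrays in 11 of the 14, an order that 19.7% of all genes tested had. Nppa, the atrial natriuretic peptide gene, had 12.21 and 13.39 in the Akita arrays against 11.98, 11.86 and 11.79 in wild type hearts (log2 difference 0.92, SE 0.30, adjusted p = 0.274), and Nppb had 10.66 and 11.18 against 10.18, 10.59 and 10.55 (adjusted p = 0.343). Pam, an enzyme of atrial secretory granules that amidates peptides, had 11.20 and 11.76 against 11.04, 11.03 and 10.99 (adjusted p = 0.310). The kinase gene Sbk3 had 5.16 and 7.51 against 5.81, 5.41 and 5.21. Kcnn3, a calcium-activated potassium channel gene, ran the other way with 5.22 and 5.33 against 5.34, 5.81 and 5.67 (adjusted p = 0.409), and the potassium channel gene Kcna5 was lowest in Akita replicate 3, at 6.60 with 7.33 in Akita replicate 1, against 7.12, 6.85 and 6.87.

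**Figure D3:**
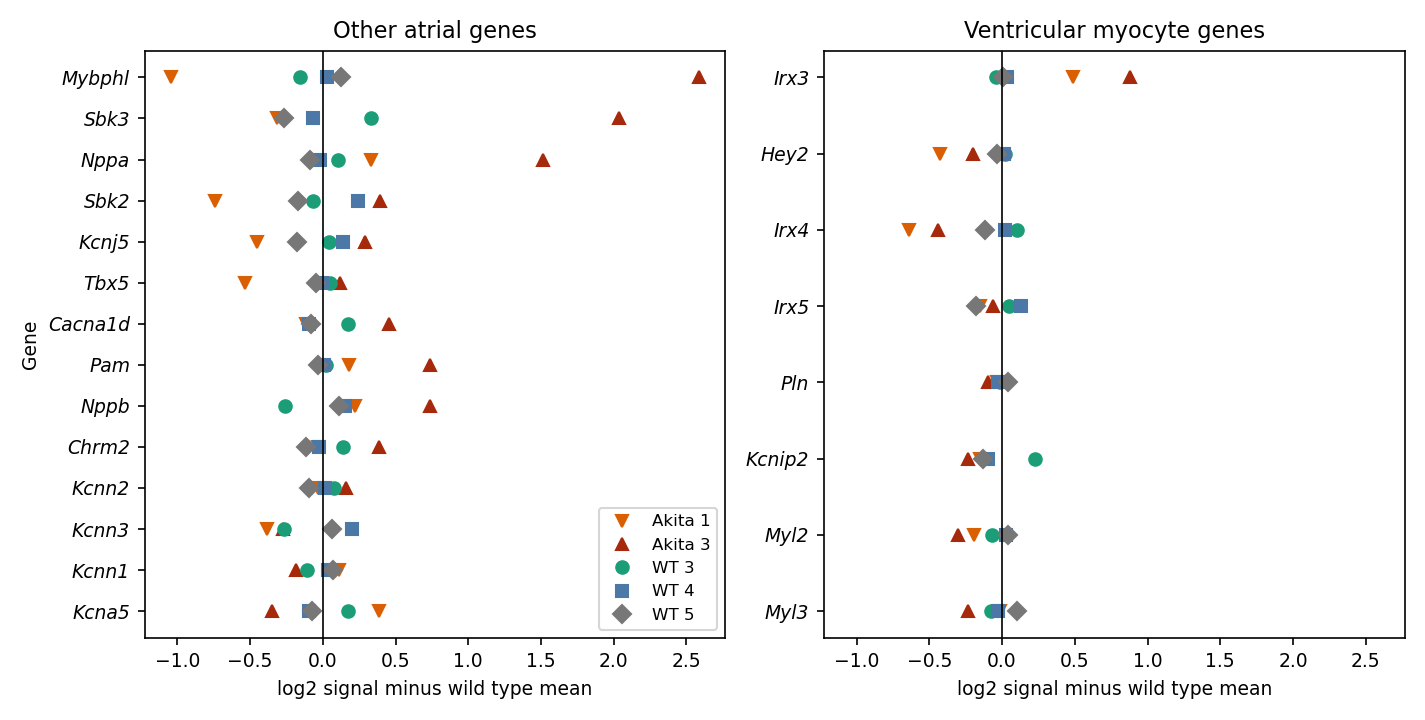
Log2 signal minus the wild type mean (horizontal axis) of 14 other atrial genes (left) and 8 ventricular myocyte genes (right), 1 symbol per array. Mybphl, Sbk3 and Nppa lie furthest to the right in Akita replicate 3, and the 2 Akita arrays lie close together for the ventricular genes.

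Ventricular myocyte genes lay lower in Akita in 7 of 8 cases (56.4% of all genes tested), with 0 past the threshold and medians of -0.15 and -0.21 in Akita replicates 1 and 3. The 2 Akita arrays lay within 0.39 of each other for each of the 8 genes. Irx4, a ventricle-restricted transcription factor, had 7.75 and 7.95 against 8.49, 8.41 and 8.27 in wild type hearts (log2 difference -0.54, SE 0.12, adjusted p = 0.165). Hey2, a repressor of the atrial programme in the ventricle, had 7.23 and 7.46 against 7.68, 7.67 and 7.62 (adjusted p = 0.317). Irx3, a factor of the ventricular conduction system, was the gene that lay higher, with 8.73 and 9.12 against 8.20, 8.28 and 8.25 (log2 difference 0.68, SE 0.14, adjusted p = 0.137). Of 9 node and conduction genes 0 rose and 0 fell, and Akita replicate 3 was the highest array in 0 of them. Hcn4, the pacemaker channel gene, had 6.08 and 6.17 against 6.46, 6.56 and 6.22 (adjusted p = 0.402), and the T-type calcium channel gene Cacna1g had 5.46 and 5.56 against 5.75, 5.80 and 6.13 (adjusted p = 0.316).

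Markers of several other tissues also lay higher in Akita replicate 3, with medians under the 0.87 of the 10 atrial genes but, for fibroblast, adipocyte and epicardial markers, over the 0.39 of the other atrial genes. Counts below of genes above all wild type arrays in Akita replicate 3 stand beside a share of 25.2% over all genes tested. Summed linear signals below cover all genes of a list on the array, dim ones included, and are led by the brightest. Fibroblast markers had medians of 0.04 and 0.60 in Akita replicates 1 and 3, and 7 of 7 lay above all wild type arrays in Akita replicate 3. Their summed linear signal was 4842 and 6266 in the Akita arrays and 4527 to 4687 in wild type ones, and Lum, a matrix proteoglycan, had the smallest p (log2 difference 0.58, SE 0.16, adjusted p = 0.209). Epicardial and mesothelial markers had medians of 0.03 and 0.42, with 6 of 9 above all wild type arrays in Akita replicate 3 and summed signals of 427 and 631 against 417 to 445. Upk3b, a mesothelial membrane gene, had 6.30 and 7.49 against 6.15, 6.17 and 6.18. Tbx18 of the epicardial list was not raised, with 5.54 and 5.90 against 5.89, 6.11 and 5.80. In that list the Akita mean was higher in 6 of 9 genes and lower in 3. For smooth muscle the medians were -0.24 and 0.32 (4 of 6, sums of 1741 and 2243 against 2044 to 2108). Cnn1, a contractile regulator, had 5.54 and 6.61 against 5.79, 5.96 and 5.83. Smtn and Acta2 of the same list were not raised. Smtn had 8.11 and 8.26 against 8.32, 8.40 and 8.27, and Acta2 had 9.94 and 10.18 against 10.26, 10.16 and 10.18. The Akita mean was higher in 4 of the 6 genes and lower in 2.

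Venous, lymphatic and endocardial markers had medians of -0.14 and 0.23, with 6 of 10 above all wild type arrays in Akita replicate 3 (25.2% of all genes tested). Their summed signals were 2151 and 3139 against 2245 to 2346. Npr3, the natriuretic peptide clearance receptor of the endocardium, had 8.08 and 9.19 against 7.81, 7.52 and 7.46 (log2 difference 1.04, SE 0.30, adjusted p = 0.228). Nfatc1 of the same list ran the other way, with 7.05 and 7.48 in the Akita arrays, both below all wild type arrays. Its log2 difference was -0.36 (SE 0.15, adjusted p = 0.344). The Akita mean was higher in 6 of the 10 genes and lower in 4. For arterial markers the medians were -0.08 and -0.05 (2 of 6 beside the same 25.2%, sums of 699 and 754 against 690 to 793). Adipocyte markers lay higher in both Akita arrays, with medians of 0.34 and 0.57 and 5 of 5 above all wild type arrays in both (9.89% of all genes tested). Their sums of 4045 and 4160 against 3079 to 3408 came mostly from Fabp4, a fatty acid binding protein also made in endothelium, at 11.91 in both Akita arrays against 11.59, 11.52 and 11.67. Ucp1, the uncoupling protein of brown fat, had 5.35 and 6.82 against 4.36, 4.21 and 4.17, while Adipoq and Lep were under the limit of 4.06.

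Skeletal muscle, which also makes sarcolipin, had medians of -0.07 and 0.00 (2 of 7 beside 25.2% of all genes tested, sums of 459 and 540 against 408 to 475). Its defining myosin genes Myh1 and Myh4 and the light chain gene Mylpf were under that limit. Lung epithelium and nerve markers had medians of 0.47 and 0.49 in Akita replicate 1 and of -0.07 and -0.02 in Akita replicate 3, with 0 of 2 and 0 of 3 above all wild type arrays in replicate 3 and Sftpa1, Scgb1a1, Cldn18, Dbh and Prph under the limit. Summed signals were 104 and 76.7 against 73.0 to 87.4 for lung and 131 and 102 against 94.1 to 115 for nerve. The tested genes, Sftpb, Sftpc, Th, Chat and Sox10, were dim too, with means from 4.36 (Th) to 4.89 (Sftpc). Median signals of the arrays were 4.53 to 4.71, with the highest in Akita replicate 1. These genes were not shown to be above background, so the meaning of their medians and sums is uncertain. Blood and leukocyte markers had medians of -0.39 and 0.01 (1 of 3, sums of 153 and 191 against 242 to 262). These were Ptprc, Cd3e and Cd68, because the red cell genes Hba-a1, Hbb-bt and Alas2 had no probe set with their symbol alone. Cd68 had the smallest p, at 6.47 and 6.82 against 7.51, 7.56 and 7.40 (log2 difference -0.845, SE 0.14, adjusted p = 0.0773). Ptprc had a lower Akita mean too, and Cd3e a higher one. In all these lists 0 genes rose and 0 fell, where 0.328% of all genes tested were called. The part of these lists in the gap of the atrial genes was not tested.

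**Figure D4:**
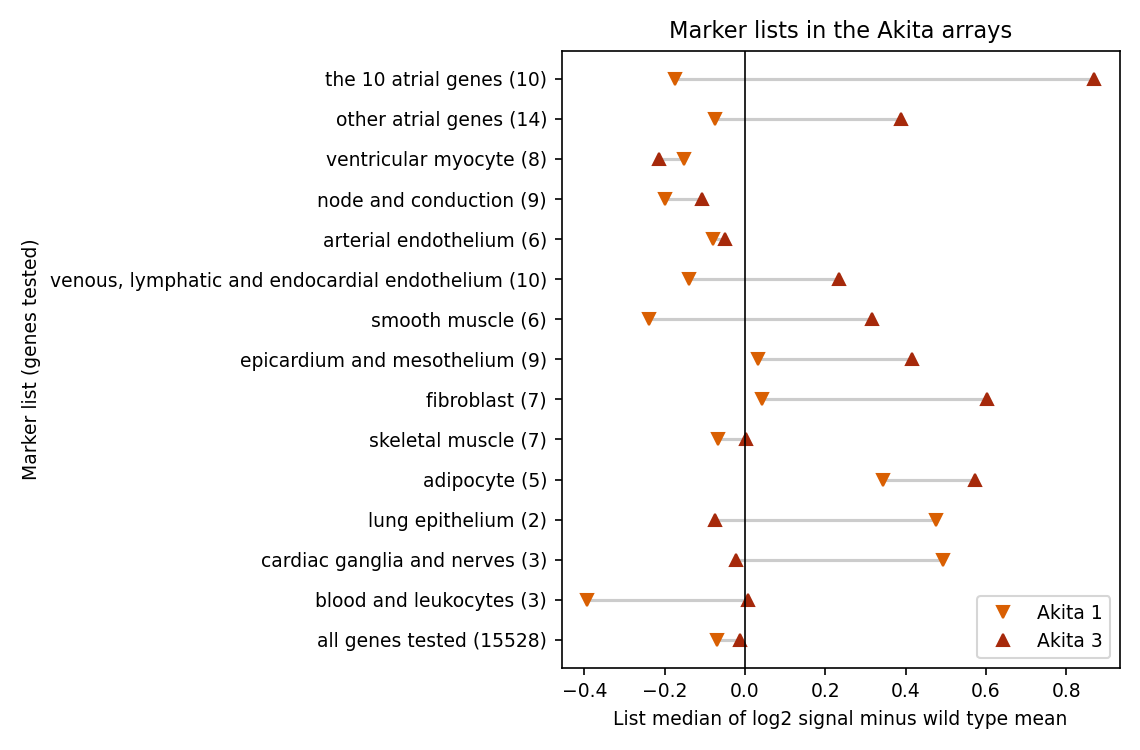
Median over each marker list (vertical axis, with the number of genes tested) of the log2 signal minus the wild type mean (horizontal axis) in Akita replicates 1 and 3. The 10 atrial genes have the widest separation, at -0.17 and 0.87, and all genes tested lie at -0.07 and -0.01.

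Genes whose signals across the 5 arrays came closest to the mean of the 10 atrial genes were named by the root mean square distance over the arrays, after subtraction of each gene's wild type mean. The mean of the atrial genes itself was -0.28 and 1.59 in Akita replicates 1 and 3. Plvap, an endothelial diaphragm protein, was closest, at a distance of 0.16, with 6.73 and 8.15 in the Akita arrays against 6.87, 6.80 and 6.96 in wild type hearts. AF357355, the membrane glycoprotein gene Gpm6a and Upk3b followed at 0.21, 0.21 and 0.22. The liver-type secreted protein genes Ahsg and Hp, the matrix gene Podn and the melanocyte gene Mlana completed the 8, at 0.25, 0.27, 0.26 and 0.26. The members lay at distances of 0.27 for Stard10, 0.36 for Dkk3 and up to 2.05 for Bmp10 from their own mean. These 8 genes were thus at least as near to that mean as any member. Likeness to the mean is therefore not likeness to each atrial gene.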

How the data were processed

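Every probe set has a log2 value for each of 5 arrays in the table as deposited, made by the authors with Affymetrix Expression Console per the submitters' processing notes. Its version and summarisation method were not given in the sources used here. Values span 1.27 to 13.66, from which base 2 was inferred. A shift common to most genes would be hidden if the authors normalized the arrays to each other. Of 41345 probe sets, 23521 carried exactly 1 gene symbol in the platform annotation, 1814 carried several and 16010 were not listed and stay unnamed here. The probe sets with 1 symbol gave 22180 genes, each read from its probe set of highest mean. A filter at the 30th percentile of the mean (4.06) kept 15528 of them and all 10 atrial genes. By Entrez identifier 23328 probe sets matched RefSeq genes of GRCm38.p6, with 0 changes of symbol. For the arrays themselves no build is stated.

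Groups came from the sample titles. Akita minus wild type was fitted with limma 3.58.1 in R 4.3.3 (lmFit, eBayes, two-sided) on all 5 arrays. P-values were adjusted by Benjamini-Hochberg over the 15528 genes with a threshold of 0.05, and "rose" and "fell" mean past it. The procedure was tested on simulated data. The number of arrays limits the precision, and the labels name no batch. The atrial genes, the marker and partner lists and the tests were chosen with earlier results of these arrays known. All 10 atrial genes are named, with up to 4 genes of smallest p per list, Nppa and the 8 nearest genes by pattern (without symbols that begin with Gm, Mir, Snor, Olfr or Vmn or end in Rik, which keeps AF357355, a small nucleolar RNA). Atp2a2, Pln, Gdf2, Fabp4, Kcnj5, Sbk3, Kcna5, Tbx18, Id2, Smad6, Mybphl, Hamp and Fgf12 were picked with their values in view. Alternatives were other filters and probe set rules, quantile normalization, centring on the median of the named probe sets, a trended and robust prior, array weights and leaving out each array. Tables and figures used Python 3.11.15, pandas 2.3.3 and matplotlib 3.10.9.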

Additional observations from a re-analysis of the deposited data

How the results depend on the processing

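The 51 calls over all genes became 86 with no filter on dim genes, 32 with quantile normalization again, 197 with an intensity trend and a robust prior and 28 with array weights, and ran from 9 to 44 with an array left out: 44 and 11 without Akita replicate 1 or 3, and 9, 14 and 21 without wild type replicate 3, 4 or 5. The median difference over the 10 atrial genes, 0.34, ran from -0.17 without Akita replicate 3 to 0.87 without Akita replicate 1. With an array left out, the difference ran from -0.18 to 0.62 for Myl4, -1.45 to 2.36 for Myl7, -1.23 to 2.91 for Sln, -0.17 to 2.37 for Dkk3, -0.18 to 0.41 for Kcnj3, -0.023 to 1.12 for Stard10, -0.40 to 0.04 for Nr2f2, -0.025 to 0.14 for Nr2f1 and -0.08 to 0.06 for Gja5, each turning its sign, and from 0.89 to 6.01 for Bmp10, which kept it. Nr2f1 was also at -0.038 with quantile normalization again, Gja5 at 0.012 with array weights and Kcnj3 at -0.033 on its second probe set. Fewer arrays enter by construction when an array is left out, and the cause of the other shifts was not tested. No atrial gene passed the threshold under the alternatives run except Bmp10, Sln, Dkk3 and Myl7 without Akita replicate 1. No paired analysis was possible because the labels name no pairs. The groups share the replicate number 3, which the labels do not describe as a pairing.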
